A study of Salmo salar with 72 samples.

Results

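The 100 genes described here are those whose levels in the distal intestine of Atlantic salmon were lowest in fish fed yeast of the species Wickerhamomyces anomalus, relative to all other diets of the trial. Smolts of Salmo salar, all vaccinated and transferred to seawater, were fed 1 of 6 diets for 42 days. In IWA and AWA the diet held W. anomalus that had been heat-inactivated (IWA) or autolyzed (AWA). In ACJ and ICJ it held autolyzed (ACJ) or inactivated (ICJ) Cyberlindnera jadinii. These 4 diets and the SBM diet contained 30% soybean meal, whereas the FM control was based on fishmeal. RNA of the distal intestine (DI) and of the spleen came from the same 6 fish per diet, 2 fish from each of 3 tanks, which gave 72 libraries, and the labels do not name the tanks.

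The members were chosen on the DI values themselves. Levels were CPM, a gene's count relative to all fragments assigned to genes in its library, taken as log2(CPM + 0.5) and averaged over the fish of a diet. For each of the 24082 genes with a mean of at least 2 CPM, D was the lowest of the 4 diet means of ACJ, ICJ, SBM and FM minus the higher of the IWA and AWA means, and the 100 genes with the largest D were kept. ICJ fish 4 took no part in the choice, which left 35 DI libraries, 12 from fish fed the W. anomalus diets (WA diets) and 23 from fish fed the other diets. D was 1.69 for the first gene and 0.87 for gene 100, ctrb, which encodes the digestive protease chymotrypsinogen B. Just outside stood ENSSSAG00000116941 with a D of 0.86. All DI differences between diets below are therefore a description of how the members were picked.

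The phagocyte NADPH oxidase is an enzyme of neutrophils and macrophages whose cytosolic subunits join a membrane cytochrome to make superoxide. B and T cells build their receptors from variable (V), joining and constant (C) gene segments. Acinar cells of the exocrine pancreas secrete proteases, elastases and carboxypeptidases into the gut, and in salmonids this tissue is scattered in the fat around the pyloric caeca. In bulk tissue, fewer cells of a type and less RNA per cell cannot be told apart.

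Of the 100 members, 59 matched a gene of the RefSeq annotation (build Ssal_v3.1), of which 24 carried a gene symbol and 35 a LOC number, and 41 had no match. By the way their levels moved together over the 36 spleen libraries, or by the RefSeq type of the locus, the members were split after their values had been seen. The pancreatic enzyme set held 23 members that followed ctrb in the spleen (Pearson's r of at least 0.9 on the log2 scale). Its name comes from the annotated enzymes among them. Only 14 of the 23 matched RefSeq and 8 carried a gene symbol, so not every gene of the set is known to encode an enzyme. The ncf4 set held 23 members that followed ncf4, a subunit of the phagocyte oxidase (r of at least 0.6). The g0s2 set held 6 members that followed g0s2 (r of at least 0.85). The antigen receptor set held 10 members whose span overlaps a V segment or C region, and 38 other members remained. These correlations describe libraries that share their diets and depth range. In the DI, r to ncf4 was 0.905 or more for every gene of the ncf4 set, but high values were not particular to it. They were 0.75 to 0.93 in the antigen receptor set, 0.68 to 0.81 in the g0s2 set and 0.30 to 0.98 in the other members. The DI libraries also chose the members.

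Fish within a diet varied widely. The mean of log2(CPM + 0.5) over the 100 members was 1.99 ± 1.1 in IWA and 1.84 ± 0.81 in AWA fish (SD, n = 6 each). In the other diets it was 4.10 ± 1.04 in ACJ (n = 6), 3.52 ± 2.16 in ICJ (n = 5), 3.64 ± 2.24 in SBM and 3.34 ± 1.45 in FM fish (n = 6 each). Fish of the WA diets lay between 0.81 and 3.51 and those of the other diets between 0.23 and 6.85, so the groups overlapped. The highest WA fish was IWA 2. The lowest fish of the other diets was ICJ 1, which also had the lowest level of those 23 fish in 66 of the 100 members, and the highest was SBM 3, which led in 50. For no member did all 12 WA fish lie below all 23 others, and the same count was 0 of the 24082 genes ranked (0%). Per member, between 7 and 21 of the 23 other fish lay at or below the highest WA fish (median 15), while 9 to 12 of the 12 WA fish lay below the median of the others (median 11).

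**Figure D1:**
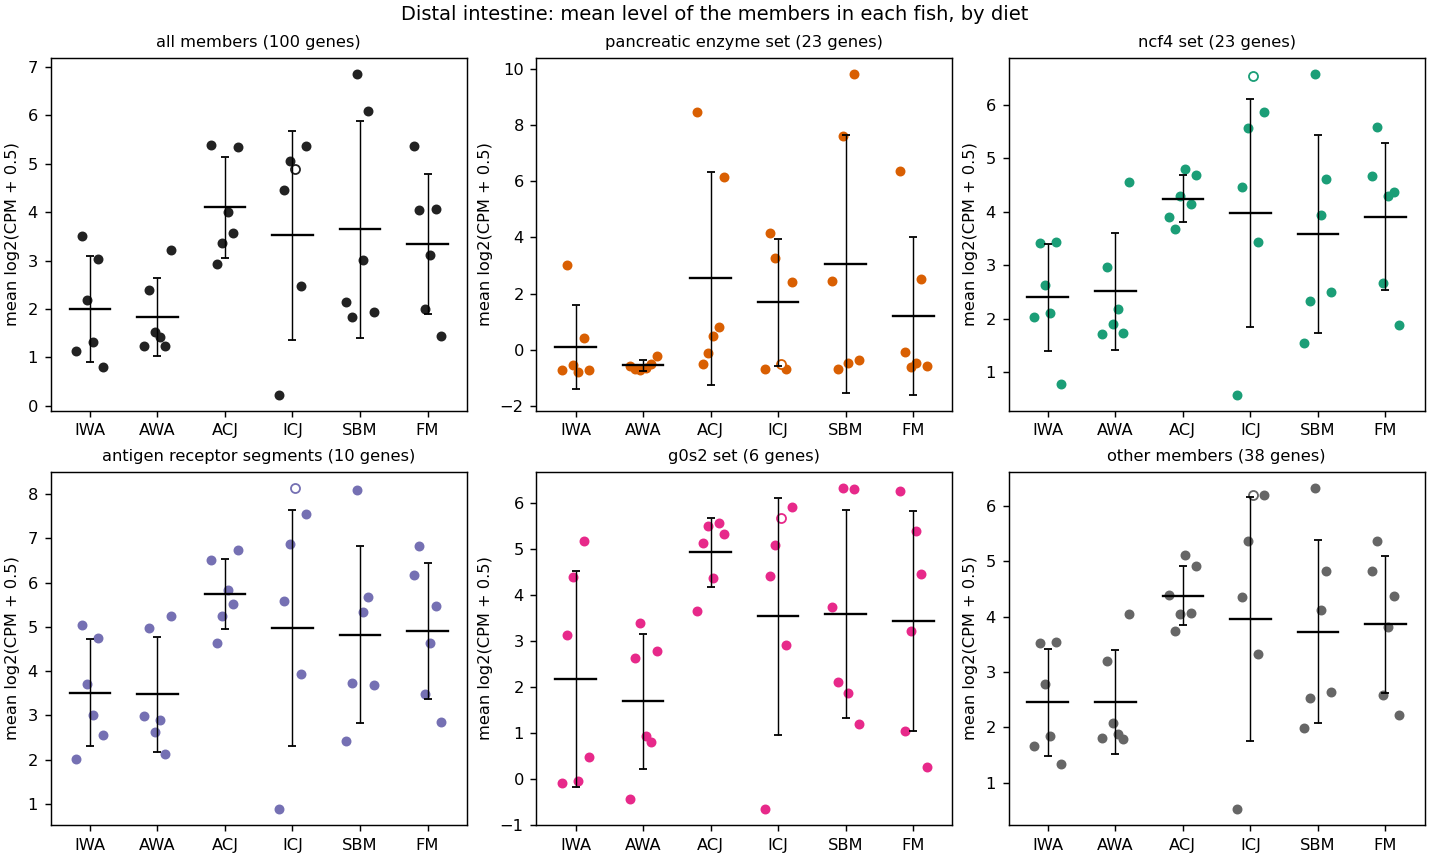
Each point is 1 fish and gives its mean log2(CPM + 0.5) over all members or over a set of members in the distal intestine, by diet. Horizontal lines with bars are the diet mean ± SD, and the open point is ICJ fish 4, which is left out of the mean. Over all members the WA fish sit between 0.81 and 3.51 and the fish of the other diets between 0.23 and 6.85, with ICJ 1 lowest.

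The diet that set D differed between sets. The lowest of the 4 other diets was SBM for 52 members, FM for 39 and ICJ for 9, and never ACJ. SBM was the lowest for all 23 genes of the ncf4 set, and FM for 22 of the 23 genes of the pancreatic enzyme set. IWA was the higher WA diet for 58 members and AWA for 42.

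Genes of the phagocyte oxidase were members at ranks 5 to 91. LOC100270810, annotated as neutrophil cytosolic factor 1, the organising subunit (chromosome 13, 64628839 to 64647542), had rank 5 by D. Its lowest, median and highest DI levels were 6.68, 24.0 and 58.7 CPM in IWA fish and 11.2, 16.1 and 115 CPM in AWA fish. They were 64.5, 92.1 and 134 CPM in ACJ, 17.6, 52.7 and 602 CPM in SBM and 11.8, 87.2 and 215 CPM in FM fish, and the 5 ICJ fish had 4.10, 49.1, 187, 223 and 313 CPM. Every ACJ fish lay above every IWA fish, but 1 AWA fish reached the ACJ range and the low fish of ICJ, SBM and FM lay at or below WA levels.

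The other oxidase genes among the members and a proton channel also had lower medians in WA fish. LOC106583317, annotated as the voltage-gated hydrogen channel 1-like gene, which lets protons out of the cell while the oxidase works, had a median of 1.92 CPM in WA fish (0.917 to 9.68) against 8.89 CPM in fish of the other diets (0.769 to 35.5). For ncf4, which encodes the p40phox subunit (chromosome 12, 18353075 to 18390122), the medians were 7.73 CPM in WA fish (2.23 to 40.9) and 34.9 CPM in the others (1.49 to 160). LOC106575674, the heavy chain of the membrane cytochrome, had 10.8 CPM in WA fish (4.41 to 59.2) against 38.7 CPM in the others (3.38 to 173). The gene with the symbol ncf1, which the study's gene table names as an SH3 and PX domain protein instead, had 15.3 CPM in WA fish (5.46 to 57.5) against 48.9 CPM in the others (6.67 to 223). In each of these 4 genes at least 1 fish of the other diets was below the median of the WA fish.

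Receptors and signals of myeloid cells stood beside the oxidase. gpr84, a receptor for medium-chain fatty acids on phagocytes, had a median of 3.31 CPM in WA fish (1.18 to 20.7) against 17.0 CPM in fish of the other diets (0.821 to 155). LOC106568373, annotated as a receptor for the complement peptide C3a, had 1.78 CPM in WA fish (0.306 to 17.9) against 12.1 CPM in the others (0 to 80.2). For LOC106577663, annotated as the gamma chain of the IgE receptor, an adaptor that passes on signals of several Fc receptors, the medians were 11 CPM in WA fish (7.62 to 38.5) and 27.4 CPM in the others (5.33 to 116). The WA fish filled the lower part of the range of the others for all 3 receptors.

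Secreted cytokines and chemokines were members too. tnf-alpha-1, which encodes the cytokine tumour necrosis factor, was among the low genes, with 0.516 CPM in WA fish (0.0707 to 1.81) against 1.80 CPM in the others (0 to 10.8). ccl19a.1, a chemokine that in mammals draws T cells and dendritic cells to lymphoid tissue, had 17.4 CPM in WA fish (4.85 to 131) against 78.1 CPM in the others (4.67 to 433). cxl10, whose mammalian namesake is an interferon-induced chemokine, had 1.04 CPM in WA fish (0 to 5.04) against 3.87 CPM in the others (0.154 to 17.8). LOC106604583, annotated as leukocyte cell-derived chemotaxin-2-like (chromosome 5, 29503077 to 29505886), had 0.669 CPM in WA fish (0.0873 to 2.94) against 4.40 CPM in the others (0 to 36.7). At these levels tnf-alpha-1, cxl10 and LOC106604583 rest on few fragments per library.

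Further genes of the ncf4 set had the same ordering of medians, and which cells expressed them was not tested. LOC100500786, annotated as arginase-1, which splits arginine, had 0.722 CPM in WA fish (0.218 to 6.51) against 4.14 CPM in the others (0.0513 to 30.9). LOC106604697, annotated as a matrix metalloproteinase-17-like protease, had 6.23 CPM in WA fish (0.393 to 74.5) against 46.4 CPM in the others (0 to 156). tnfaip2b, a gene that TNF induces in mammals, had 9.39 CPM in WA fish (4.15 to 33.2) against 32.4 CPM in the others (4.15 to 180). Of the 23 genes of the ncf4 set, AWA 6 was the highest WA fish in the mean (4.55) and ICJ 1 the lowest fish of the others (0.58).

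Among the other members were hamp, hp and hpxb. hamp encodes hepcidin, the peptide hormone that limits iron release, and its median was 1.23 CPM in WA fish (0.0437 to 15.1) against 5.98 CPM in the others (0 to 37.2). hp, haptoglobin, which binds free haemoglobin, had 0.640 CPM in WA fish (0 to 6.16) against 2.80 CPM in the others (0 to 18.9). hpxb, a hemopexin gene, whose product binds haem, had 2.53 CPM in WA fish (0.0437 to 6.85) against 6.38 CPM in the others (0.0513 to 27.0). All 3 had fish of both groups near 0.

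Lymphocyte genes included the antigen receptor loci and single markers. cd37, a tetraspanin of B cells, had 1.53 CPM in WA fish (0.480 to 4.81) against 5.22 CPM in the others (0.410 to 30.9). pim2, a kinase that promotes survival of lymphocytes, had 13.4 CPM in WA fish (6.07 to 51.9) against 37.1 CPM in the others (4.87 to 224). The first gene of the list, ENSSSAG00000048867 (chromosome 7, 46690742 to 46691424, overlapping an annotated C region), had 10.8 CPM in WA fish (1.41 to 32.1) against 37.0 CPM in the others (0.718 to 865). The member with the highest mean level, 3337 CPM, was LOC123741723 (chromosome 3, 75727291 to 75995977), whose span covers several V segments. It had 546 CPM in WA fish (281 to 3719) against 3193 CPM in the others (43.1 to 21597). Both of these loci were picked for description after their values were seen. The segments are near-identical copies in part, and fragments that fit several of them were not counted, so the level of a single segment is uncertain.

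Some members were neighbours. Within 200000 bases of each other lay 5 members on chromosome 7 (46690742 to 46799426), ENSSSAG00000048867 among them, and 3 on chromosome 17 (19627595 to 19658479), and in both clusters antigen receptor segments stood beside members with no such annotation. Other members with no segment annotation may be part of the same loci, which was not tested. On chromosome 2, 3 genes of the pancreatic enzyme set lay between 24077907 and 24152010.

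Digestive proteases had very high levels in a few fish of the other diets. ela2l, an elastase gene (chromosome 15, 73163936 to 73167557), had medians of 0.107 CPM in IWA and 0.141 CPM in AWA fish, against 2.36 CPM in ACJ, 11.4 CPM in ICJ, 4.58 CPM in SBM and 1.07 CPM in FM fish. Its highest fish had 10.9 CPM in IWA and 0.623 CPM in AWA, against 610 CPM in ACJ, 30.5 CPM in ICJ, 1146 CPM in SBM and 98.2 CPM in FM. The trypsin gene tryp and the carboxypeptidase genes cbpa1 and cpb1 are given with vmo1, a gene of the same set not named as a protease. These genes had highest levels of 3.3 to 10.02 CPM in WA fish and of 575 to 1407 CPM in the others. Of these, tryp, cbpa1 and cpb1 had medians under 1 CPM in both groups.

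Summed over the 23 genes of the pancreatic enzyme set, 1 of 12 WA fish (IWA 2, 209 CPM) had more than 100 CPM in the DI, against 10 of 23 fish of the other diets. The sums of the leading fish were 24900 CPM in SBM 5, 10205 CPM in ACJ 1, 5386 CPM in SBM 3, 2313 CPM in FM 1 and 1916 CPM in ACJ 6. The median was 7.24 CPM in WA fish and 39.0 CPM in the others. The set thus amounted to at most 2.49% of a DI library, and the number of fish with high sums in each diet was between 0 of 6 (AWA) and 3 of 5 (ICJ).

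The g0s2 set had low fish in every diet but ACJ. g0s2 encodes an inhibitor of adipose triglyceride lipase, the enzyme that starts the breakdown of stored fat (chromosome 13, 40332935 to 40334171). Its lowest, median and highest DI levels were 0.324, 7.03 and 64.4 CPM in IWA and 0.257, 4.89 and 28.2 CPM in AWA fish. In ACJ fish they were 22.4, 59.5 and 110 CPM, in SBM fish 1.3, 10.4 and 232 CPM and in FM fish 0.636, 18.3 and 163 CPM, and the 5 ICJ fish had 0, 12.1, 19.6, 58.1 and 74.1 CPM. ret7, another gene of the set, had a median of 2.56 CPM in WA fish (0.0734 to 29.0) against 11.4 CPM in the others (0 to 115). IWA 5 was the highest WA fish of the set.

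Not described so far were si:ch1073-126c3.2, of the other members, and si:ch211-153b23.7, of the ncf4 set. Both are uncharacterized, with medians of 2.58 and 3.37 CPM in WA fish against 15.3 and 12 CPM in the others. LOC106588089, annotated as the nicotinate-nucleotide pyrophosphorylase of NAD synthesis, had 77.2 CPM in WA fish (39.3 to 169) against 172 CPM in the others (30.0 to 784). LOC106588089 had the smallest fitted difference of the 100 members, with a log2 value of -1.28.

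**Figure D2:**
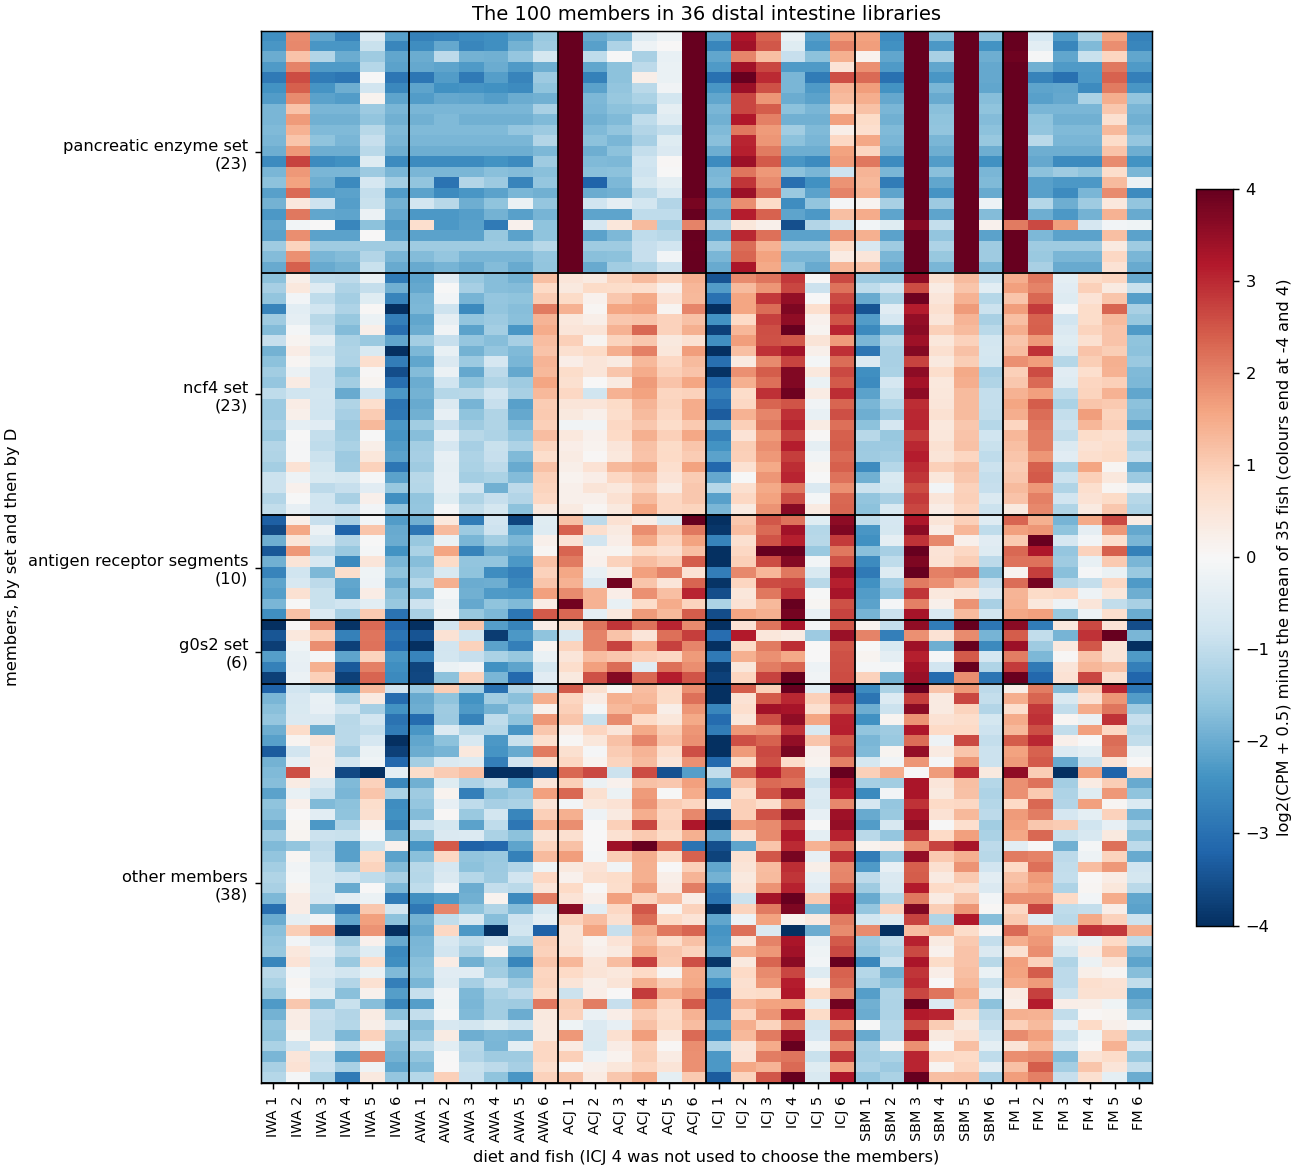
Rows are the 100 members, grouped by set and then ordered by D, and columns are the 36 distal intestine libraries by diet. Colour gives log2(CPM + 0.5) minus the gene's mean over 35 fish, with colours ending at -4 and 4. The pancreatic enzyme set is high in single fish (SBM 3, SBM 5, ACJ 1, ACJ 6, FM 1), and the other sets are low in ICJ 1 and high in SBM 3 and in ICJ 4, which was not used for the choice.

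The fit across all genes was run on the DI with all 36 libraries, and 83 of the 100 members were called lower in WA than in the other diets (edgeR, adjusted p below 0.05). Over all 32157 genes tested 5.08% were called lower and 8.83% in either direction. The rule used this contrast, so nothing is read from that count, nor from the 97 members that DESeq2 called, where it called 9.28% of genes. It also rested on single libraries: leaving out any of IWA 1, IWA 4, IWA 6, AWA 1, AWA 3, AWA 4 or AWA 5 left 0 members called, with 0 to 10 genes called in all, while the median log2 difference of the members stayed between -2.46 and -1.94 over all 36 runs. By set the median was -6.58 in the pancreatic enzyme set, -2.39 in the antigen receptor set, -2.17 in the g0s2 set, -2.0 in the other members and -1.88 in the ncf4 set. The fit to counts weighs the few fish with very high pancreatic sums (up to 24900 CPM). The median sums were 7.24 CPM in WA fish and 39.0 CPM in the others.

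Against FM alone, the members had a median log2 difference of -1.68 in AWA and -1.83 in IWA fish. By edgeR 0 members were called in AWA|FM, where 3.41% of all genes were called, with 42 at an unadjusted p below 0.05 (24.2% of all genes), and DESeq2 called 24, where it called 5.03% of genes. In IWA|FM edgeR called 0 members, where 0.308% of genes were called, with 41 at an unadjusted p below 0.05 (18.7% of all genes), and DESeq2 called 4, where it called 1.94% of genes. Both comparisons share the FM fish. Between AWA and IWA the members had a median of 0.08, which joined sets that differed. It was -3.85 in the pancreatic enzyme set (22 of 23 genes lower in AWA, median SE 2.84) and -1.11 in the g0s2 set (6 of 6 lower). In the other sets it was 0.31 (ncf4 set), 0.05 (antigen receptor set) and 0.23 (other members). Summed over the pancreatic enzyme set, IWA 2 had 209 CPM and the other IWA fish 2.32 to 25.5 CPM. The medians of these sums were close, 7.13 CPM in IWA and 7.24 CPM in AWA fish. The part of IWA 2 in the fitted difference was not tested. For AWA against IWA edgeR called 0 members and 0% of genes, and no member had an unadjusted p below 0.05 (2.91% of all genes). DESeq2 called 0 members and 0.0132% of genes, with 13 members at an unadjusted p below 0.05 (3.14% of all genes). In SBM|FM the median was 0.45, with 82 of 100 members on the higher side. There edgeR called 0 members, where 0.0187% of genes were called, with 6 at an unadjusted p below 0.05 (8.84% of all genes), and DESeq2 called 0 members and 0.32% of genes. In the ncf4 set the fit to counts and the mean of log2(CPM + 0.5) differed in sign. The fit put 18 of its 23 genes higher in SBM than in FM, while the SBM mean was the lower for all 23. Summed over that set, SBM 3 had 4049 CPM and the other SBM fish 98.7 to 937 CPM. The part of SBM 3 in this was not tested.

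ICJ fish 4 was a fish the rule had not seen. It lay above the median of the other-diet fish in 75 of the 100 members, above each of those 23 fish in 36 and below the highest WA fish in 28. The same shares over all genes were not counted, so nothing about the members is read from these counts. All 23 genes of the ncf4 set were above that median, but only 1 of the 23 genes of the pancreatic enzyme set. The ICJ 4 library stood apart from all other DI libraries, with a median Spearman correlation over genes of 0.643 to them where the next lowest, IWA 5, had 0.823. All 36 DI libraries entered the fits above. DI libraries of the WA diets were deeper in the median, with 25347914 fragments in IWA and 23068993 in AWA against 17278871 to 18166410 in the other diets. The shallowest library, IWA 5 with 6976621 fragments, was also of a WA diet, and IWA 5 was the highest WA fish in 15 members. The part of depth in the result was not tested.

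The spleen of the same fish took no part in the choice. There the members did not share a direction: of the 99 tested, 55 had a log2 difference above 0 and 44 below 0 between WA and other diets, with a median of 0.03 beside 0.00 over all 32144 genes. By edgeR 0 members were called, and 0% of genes, with 30 members at an unadjusted p below 0.05 (6.36% of all genes), 24 of them higher and 6 lower in WA. DESeq2 called 1 member higher, ENSSSAG00000094797 of the g0s2 set, where it called 0.0245% of all genes. In AWA|FM edgeR called 0 members and 0% of genes, with 9 members at an unadjusted p below 0.05 (9.2% of all genes), and DESeq2 called that same gene, where it called 0.0472% of genes.

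The ncf4 set was close to even in the spleen, with a median log2 difference of -0.03 and a range of -0.20 to 0.26. Its genes were put together by their correlation to ncf4 over these same spleens. Similar values were therefore partly fixed by that choice, and the genes are not separate evidence. LOC100270810 had 189 CPM in WA spleens (106 to 390) against 195 CPM in the others (125 to 368), a log2 difference of -0.05 ± 0.19 (SE). ncf4 had 90.9 CPM in WA spleens (55.9 to 180) against 103 CPM in the others (65.2 to 134), a log2 difference of -0.04 ± 0.13. The antigen receptor set had a median of -0.21 and the other members of -0.05. Whether the diet difference of a gene in the DI differs from that in the spleen was not tested.

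In the pancreatic enzyme set all 23 genes had a higher fitted level in WA than in other spleens, with a median log2 difference of 2.18, and 19 had an unadjusted p below 0.05. ctrb had 163 CPM in WA spleens (3.57 to 3908) against 39.1 CPM in the others (0 to 1809), a log2 difference of 2.18 ± 0.99. The adjusted p of its set lay between 0.721 and 0.846 in edgeR's quasi-likelihood test. The summed level was above 1000 CPM in 7 of 12 WA spleens and in 12 of 24 others, so the shares above that cut were close. Its median was 4157 CPM in WA spleens and 1090 CPM in the others, and the groups overlapped over nearly their whole range. The sums were 87149 CPM in AWA 3, 81813 CPM in IWA 4 and 63767 CPM in AWA 5, against 53587 CPM in ICJ 2 and 28468 CPM in FM 2. The highest of them was 8.71% of the library, and the lowest spleen, FM 3, had 8.62 CPM.

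Some fish with a high pancreatic sum in 1 tissue also had a high sum in the other, and others did not. ICJ 2 had 490 CPM in the DI and 53587 CPM in the spleen, the highest ICJ fish in both, and ACJ 1 was the highest ACJ fish in both, with 10205 CPM in the DI and 6972 CPM in the spleen. FM 1 had 2313 CPM in the DI and 7729 CPM in the spleen. In contrast, SBM 5, the highest in the DI with 24900 CPM, had 136 CPM in the spleen, and SBM 3 and ACJ 6 had 217 and 410 CPM there. AWA 3, the highest in the spleen, had 3.91 CPM in the DI, and IWA 4 and AWA 5, the next highest in the spleen, had 2.32 and 11.8 CPM. The correlations to ctrb were 0.75 to 1.00 in the DI, and 0.97 to 1.00 in the spleen, where they restate how the set was made. How much pancreatic tissue was taken with each piece of gut or spleen was not recorded in the labels, and its part in the result was not tested.

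In the g0s2 set all 6 genes had a log2 difference above 0 in the spleen, with a median of 1.55, and none was called by edgeR, with 5 at an unadjusted p below 0.05, while DESeq2 called 1. As in the pancreatic enzyme set, the genes were put together by their correlation over these same spleens, so a shared direction and similar p-values were fixed by that choice and the genes are not separate evidence. The g0s2 set and the pancreatic enzyme set also moved together over the spleens. There r to ctrb was 0.61 to 0.73 in the g0s2 set, and r to g0s2 was 0.60 to 0.65 in the pancreatic enzyme set. The differences of these sets in the spleen are therefore not separate results. g0s2 had 48.1 CPM in WA spleens (7.60 to 130) against 15.3 CPM in the others (5.24 to 82.0), a log2 difference of 1.48 ± 0.40 with an adjusted p of 0.44 in edgeR. For ret7 the medians were 14.1 CPM in WA spleens (0.976 to 43.9) and 3.66 CPM in the others (0.456 to 21.2), a log2 difference of 1.89 ± 0.53 with the same adjusted p. ENSSSAG00000094797 had 13.2 CPM in WA spleens (4.82 to 35.7) against 6.68 CPM in the others (3.23 to 13.5), a log2 difference of 1.15 ± 0.24 with an adjusted p of 0.19. In the DI the same gene had 3.3 CPM in WA fish (0.529 to 62.5) against 31.2 CPM in the others (1.23 to 233). In a list of fat cell genes added later, 3 had enough counts, with a median log2 difference of 1.00 in the spleen and of -0.15 in the DI. plin1, the coat protein of lipid droplets, had 1.00 ± 0.21 in the spleen and -1.45 ± 0.59 in the DI, cidec had 1.60 ± 0.44 and 0.36 ± 0.22, and pnpla2 had 0.32 ± 0.11 and -0.15 ± 0.23. Summed over the list, fat cell genes had a median of 59.2 CPM in WA spleens (25.7 to 117) against 32.1 CPM in the others (21.0 to 53.5), and of 114 CPM in WA intestines (73.1 to 136) against 111 CPM in the others (46.4 to 215). Of the genes of that list with too few counts, fabp4 was at 0 in all DI libraries, and adipoqb and lepa had at most 0.164 CPM in WA fish of either tissue. Whether these genes mark fat cells in salmon was not tested. The part of fat tissue in the result was not tested.

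**Figure D3:**
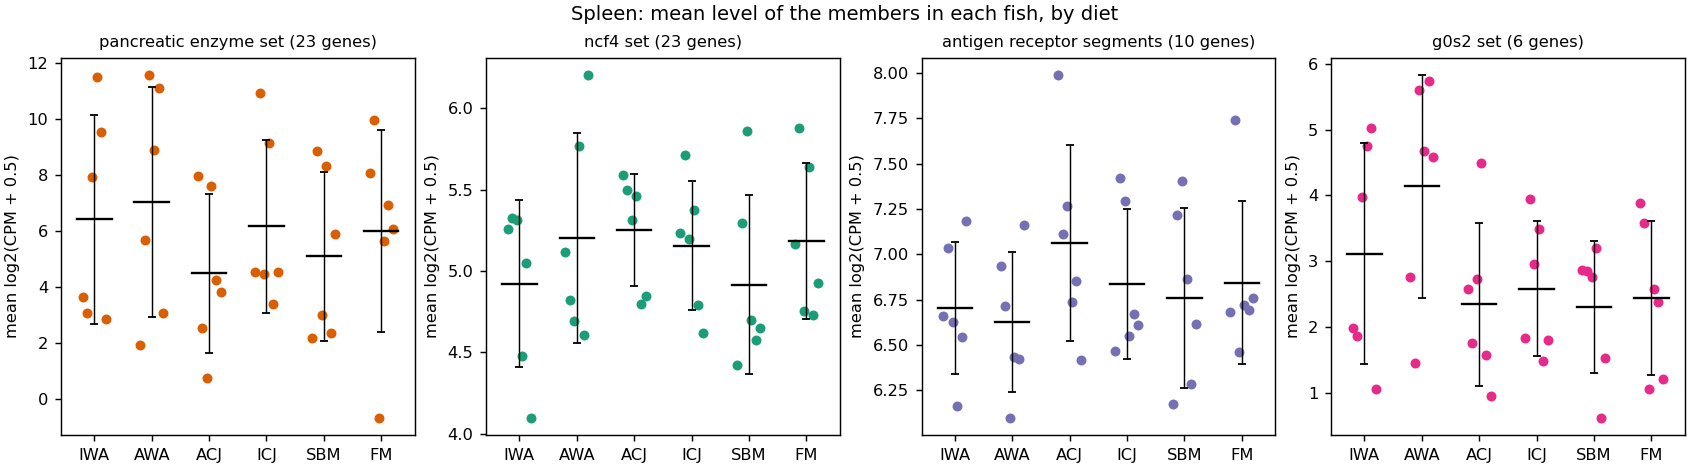
Each point is 1 fish and gives its mean log2(CPM + 0.5) in the spleen over the genes of a set, by diet, with the diet mean ± SD. Over the ncf4 set, WA spleens lie between 4.10 and 6.20 and the others between 4.42 and 5.88. Over the pancreatic enzyme set, WA spleens lie between 1.92 and 11.6 and the others between -0.69 and 10.9.

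Which tissue expresses the members was asked in the 6 FM fish, with DI and spleen of a fish compared within that fish. By edgeR 63 members were lower in the DI than in the spleen and 2 higher. Over all 34239 genes tested 26% were lower and 28.8% higher in the DI, 54.8% in either direction. DESeq2 called 75 members, where it called 40.2% of genes. The median log2 difference was -1.53 for the members and -0.03 for all genes. Without FM 4 the number of members called was 41, and without the fish as a block it was 24. The FM values of the DI were among those that chose the members.

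The pancreatic enzyme set was the furthest apart, with a median log2 difference of -6.23 and 21 of 23 genes lower in the DI. ctrb had 0, 0.162 and 89.6 CPM as lowest, median and highest in FM intestines against 0, 80.9 and 1063 CPM in FM spleens. Also called lower in the DI were 9 of 23 genes of the ncf4 set (median -0.96), 6 of 10 of the antigen receptor set (median -1.55) and 27 of the 38 other members, a remainder of mixed and partly unannotated genes. ncf4 had 5.43, 44.9 and 92.8 CPM in FM intestines against 82.4, 104 and 134 CPM in FM spleens. cd37 had 0.685, 3.15 and 18.0 CPM in FM intestines against 104, 162 and 310 CPM in FM spleens, with no overlap and a log2 difference of -5.35 ± 0.70 (adjusted p = 0.00034 in edgeR). ccl19a.1 had 12, 81.0 and 209 CPM in FM intestines against 215, 431 and 516 CPM in FM spleens, again without overlap, with a log2 difference of -2.29 ± 0.54 (adjusted p = 0.007 in edgeR).

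In the g0s2 set the median log2 difference was 1.68, and 1 of 6 genes had an unadjusted p below 0.05 (60.2% of all genes). g0s2 had 0.636, 18.3 and 163 CPM in FM intestines against 6.39, 13.5 and 40.4 CPM in FM spleens. The 2 members higher in the DI were LOC106577197, with a log2 difference of 1.38 ± 0.43, and ENSSSAG00000087676, both named after their values were seen. ENSSSAG00000087676 lies on chromosome 28 (15140615 to 15154506) over the genes aqp8a.1 and aqp8a.2, which encode aquaporins, and had 269, 430 and 805 CPM in FM intestines, whereas 0.071 CPM was the most in FM spleens. In the DI its median was 29.8 CPM in WA fish (2.67 to 376) against 295 CPM in the others (3.61 to 805).

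**Figure D4:**
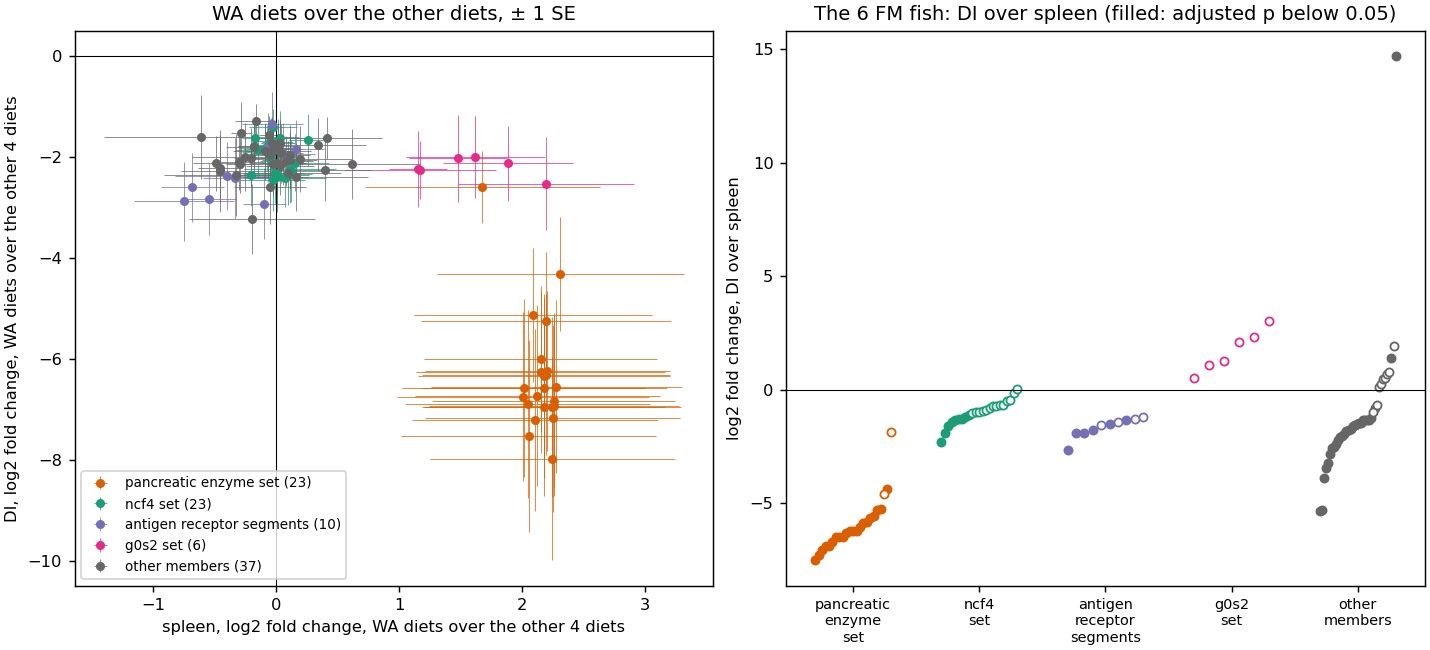
Left, each point is a member with its log2 fold change of WA over other diets in the spleen (horizontal) and in the distal intestine (vertical), ± 1 SE. The vertical position is fixed by the choice of members. Right, the log2 fold change of distal intestine over spleen in the 6 FM fish, with filled points for an adjusted p below 0.05. On the left the medians in the spleen are 2.18 for the pancreatic enzyme set, 1.55 for the g0s2 set and -0.03 for the ncf4 set.

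Marker genes of other cell types and pathways were read beside these results in the DI, where 5.08% of all genes were called lower and 3.75% higher. The calls are from the fit that rested on single libraries: without any of 7 WA fish, 0 members and few genes in all were called. By symbol, the lists given here held no member, apart from that of the exocrine pancreas. The lists were matched by symbol, so members such as tnf-alpha-1 and cxl10 were not counted in them. The 5 enterocyte markers tested had a median log2 difference of 0.05 between WA and other diets. Of 8 posterior Hox genes 1 was called higher and 0 lower (median 0.94), and of 5 anterior Hox genes 0 were called (median -0.05). Summed posterior Hox levels had a median of 31.1 CPM in WA fish (8.31 to 45.3) against 17.1 CPM in the others (7.38 to 46.8). The 1 smooth muscle marker, not called, had 522 CPM (107 to 819) against 256 CPM (34.1 to 1032). The part of gut position or gut wall was not tested. Among 27 genes of Toll-like receptors and cytokines 8 were called lower and 0 higher, and among 31 cytokine and chemokine receptors 8 were lower and 0 higher. Of 12 interferon response genes 4 were lower, and of 16 genes of protein processing in the endoplasmic reticulum 6 were higher. Of 12 complement genes 1 was lower. The 2 macrophage markers tested, mpeg1.1 and c1qb, had a median log2 difference of -0.88 and adjusted p-values of 0.051 and 0.095 in edgeR. cd79b, a chain of the B cell receptor complex, had a log2 difference of -1.25 and was the only B cell marker tested, and 1 of 2 T cell markers was lower. csf3r, the receptor of the granulocyte growth factor, and mmp9, a neutrophil protease, had -1.37 ± 0.39 and -1.1 ± 0.34 and belong to a neutrophil and macrophage list added later, of which 2 of 8 genes were called. In a list of 9 exocrine pancreas genes under salmon symbols, also added later, 7 were members and 8 were called lower. The rule chose those members as low in WA fish, so nothing is read from that count. In the FM fish 4 of 5 enterocyte markers were higher in the DI than in the spleen (median log2 difference 12.6), as the tissue labels say.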

How the data were processed

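Gene counts of the deposited tables were read for 72 libraries (TruSeq stranded mRNA). Per the labels and the study's methods, the authors trimmed reads with Trim Galore, aligned them with STAR and RSEM to Ssal_v3.1 and made the counts with featureCounts 1.4.6, while the file headers name another release. Pairs were counted on the reverse strand and multi-mapping fragments were left out. Library totals were 6976621 to 30857656 fragments in the DI (medians of 25347914 in IWA, 23068993 in AWA and 17278871 to 18166410 in the other diets) and 15062129 to 35187924 in the spleen. The table of FM 3, 4 and 5 in the DI came from another counting folder.

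Counts were tested with edgeR 4.0.16 (TMM, filterByExpr, robust quasi-likelihood F test, Benjamini-Hochberg adjustment over all genes tested, threshold 0.05) with diet as the term, 36 libraries per tissue. DI and spleen of the 6 FM fish were compared with the fish as a block, since the labels give each fish an identifier. DESeq2 1.42.0, other scalings and filters, sums per inferred tank and single libraries left out were alternatives. Standard errors are of the log2 fold change. P-values measure the spread between fish, and 2 fish share a tank. The code was tested on simulated data. ± is SE after a log2 difference and SD after a mean. Correlations were Pearson's on log2(CPM + 0.5). CPM compares a gene between samples, not genes with each other.

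The members, sets and lists were chosen with earlier results of these data known. Named genes were the 30 members of largest D with a symbol or product name, members of the gene lists, members called in the spleen and the edge of the list. Others are said to have been picked later. 33 lists matched no member by symbol, the pancreatic markers matched no gene, and 4 lists with salmon symbols (oxidase, neutrophil and macrophage, exocrine pancreas, adipocyte) were added after values were seen, of which the oxidase list is not reported here. Product names come from the study's gene table. No sequence is shown.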

Additional observations from a re-analysis of the deposited data

Results flagged for a closer look

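Within a diet of 6 fish (ICJ 4 included), a fish whose distance from its nearest neighbour took up an unusually large part of the group's range was looked for in the mean log2(CPM + 0.5) of each set (Dixon's test, 95% level). Of 72 groups 3 held such a fish, and chance alone gives about 1 in 20. In the DI, IWA 2 had a mean of 3.01 over the pancreatic enzyme set, where the next IWA fish had 0.44. In the spleen, FM 2 had 7.74 over the antigen receptor segments, where the next FM fish had 6.76, and IWA 4 had the lowest mean over the other members, 4.37, where the next had 5.11.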

How the results depend on the processing

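The number of members called in the DI between WA and other diets (83) was 97 with DESeq2, 85 with RLE size factors, 93 with counts summed per inferred tank, 56 with no filter on low counts and 84 without the 3 FM libraries counted in another folder (chosen after seeing the data). It ranged between 0 and 95 when 1 library was left out, and the 7 runs that gave 0 each left out a fish of a WA diet. In AWA|FM, 0 members became 24 with DESeq2, 4 with tank sums, and 0 to 3 when 1 library was left out (3 without FM 3 or ICJ 1). In IWA|FM, 0 became 4 with DESeq2 and 1 with tank sums. In the spleen, 0 members between WA and other diets became 1 with DESeq2, and 0 to 1 with 1 library left out (1 without IWA 6 or AWA 2), and in AWA|FM 0 became 1 with DESeq2. DI against spleen in FM fish called 65 members, 41 to 69 with 1 fish left out, 75 with DESeq2 and 24 with no replicate block. The cause of these changes was not tested.

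Fish that share a replicate number are not labelled as sharing a tank, and their deviations had a mean correlation of -0.01 in the DI and 0.02 in the spleen, so the numbers were not taken to pair fish. With that number as a replicate block 0 members were called between WA and other diets in the DI, and no other count of members changed. Tanks were inferred from runs of 6 fish numbers, which no label could check. Deviations of fish in the same inferred tank had a mean correlation of -0.29 in the DI and -0.14 in the spleen. For fish of the same diet in different inferred tanks it was -0.17 and -0.21. The tank sums therefore rest on an unchecked guess.

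The choice of members depended on single fish. Of the 100 members, 59 stayed in the list without SBM 1 or without SBM 3, 61 without FM 1 and up to 100 without another fish, 53 with diet medians in place of means, 78 and 85 with a pseudocount of 0.1 and 1, 91 with a mean of at least 5 CPM, 90 with TMM scaling and 90 with ICJ 4 included.

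Over all genes, the calls in the DI between WA and other diets (2839) were 1157 with no filter, 4922 with DESeq2, 4294 with tank sums and 0 under the block. In AWA|FM 1097 calls were 452, 2669, 3526 and 515 in the same order, and 6 without the 3 FM libraries. In IWA|FM 99 calls were 12, 1031, 1349 and 6, and 5 without those 3. In SBM|FM 6 calls were 170 with DESeq2, 22 with tank sums and 3 both under the block and without those 3. DESeq2 called 7 genes in AWA|IWA, and 13 and 25 in the spleen for WA against other diets and for AWA|FM, where edgeR called 0 each. Depth limits members of low level: 9 had a mean under 5 CPM. That count leaves out members whose mean was raised by a few fish. Genes of the pancreatic enzyme set had means of 12.8 to 148 CPM. The median of their sum was only 7.24 CPM in WA fish and 39.0 CPM in the others.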
